A study of Mus musculus with 9 samples.

Results

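In mouse embryonic stem cells with a drug-inducible RAF kinase, some close neighbours among chromatin sites changed in opposite directions after induction, one opening and the other closing. The authors' deposited list of sites that changed accessibility (build mm10) was sorted by chromosome and site centre. A pair was any 2 adjacent rows on one chromosome with centres 5 kb or less apart and opposite signs of the change. Members were thus chosen by the sign of the authors' measured change and by distance. The rule found 323 pairs, made of 629 distinct sites out of 19165 listed, or 3.28% of them. Of these sites, 313 opened and 316 closed, and 17 sites (10 opening, 7 closing) belonged to 2 pairs each. Because of this choice, their changes and levels are given as a description, without a test. Sites were adjacent within the list, and sites that did not pass the authors' test may lie between them.

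Open chromatin was profiled by ATAC-seq, where a transposase inserts adapters into accessible DNA. All groups were cells of the E14tg2a line (background 129SV) carrying a stable cRAF-ErT2 cassette, a CRAF fusion that 4-hydroxytamoxifen (4OHT) switches on through its estrogen receptor part, upstream of MEK and ERK. The treated groups received 250 nM 4OHT for 1 h (3 libraries) or 2 h (3 libraries), and the control group was left untreated (0 h, 3 libraries). All 9 libraries came from cells grown in serum with LIF and 2 µM Chir99021, a GSK3 inhibitor. For 24 h before treatment the cells were kept in serum, LIF and 250 nM PD173074, an FGF receptor inhibitor. The labels do not say whether the cells are 1 clone, or whether libraries A, B and C are separate cultures, so the authors' p-values may measure technical spread. Neither fusion-free nor vehicle controls are part of the series analysed here, so effects of 4OHT and of ERK cannot be told apart. The table gives 1 mean per site for 4OHT libraries, with 1 h and 2 h together, and 1 for control libraries. It holds no value per library, the read depth is unknown, and the identity of the cells could not be checked against markers because only changing sites are listed.

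As background, embryonic stem cells hold many enhancers, short stretches of open DNA where transcription factors bind, and one gene is often served by several of them within a few kilobases. ERK phosphorylates transcription factors and cofactors, and its activation in these cells is known to switch on immediate early genes and to weaken the naive pluripotency network. Open sites in ATAC-seq are averages over a population, so whether both sites of a pair are open in the same cells or in different ones cannot be told apart.

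Sites are printed where a pair fell on an annotated promoter, since the 300 base windows around start sites are the sequences held for this build. Promoter windows run from 250 bases before to 50 after a start site, and come from RefSeq (GRCm38.p6). Among opening sites of the pairs, 6 held a whole window, at Smim14, 1110051M20Rik, Zbtb33, Zbtb43, Grin1 and Zfp280b. Among closing sites 4 did, at the genes F930017D23Rik, Mt4, 4930512J16Rik and Gm40251. The 3 windows of each kind with the smallest FDR in the authors' deposited table are shown, to let the base composition be seen beside the direction of change. Capitals mark matches, on either strand, to 6 motifs: AP-1 TGANTCA, CRE TGACGTCA, ETS CCGGAA, octamer ATGCAAAT, Esrrb TCAAGGTCA and E-box CACGTG. The windows in opening sites are those of Smim14 (chr5:65484012-65484311, minus strand), 1110051M20Rik (chr2:91444665-91444964, minus strand) and Zbtb33 (chrX:38189543-38189842, plus strand).
Smim14: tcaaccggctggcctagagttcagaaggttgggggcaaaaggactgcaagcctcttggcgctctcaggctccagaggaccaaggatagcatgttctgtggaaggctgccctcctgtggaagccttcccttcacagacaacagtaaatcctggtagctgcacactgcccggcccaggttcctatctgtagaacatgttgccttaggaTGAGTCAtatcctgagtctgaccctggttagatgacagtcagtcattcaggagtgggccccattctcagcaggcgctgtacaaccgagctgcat
1110051M20Rik: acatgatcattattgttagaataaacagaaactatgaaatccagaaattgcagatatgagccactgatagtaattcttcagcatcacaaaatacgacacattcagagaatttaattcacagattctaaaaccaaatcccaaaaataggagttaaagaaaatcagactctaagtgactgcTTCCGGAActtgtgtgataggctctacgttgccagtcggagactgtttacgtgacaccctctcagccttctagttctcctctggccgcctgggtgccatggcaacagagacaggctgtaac
Zbtb33: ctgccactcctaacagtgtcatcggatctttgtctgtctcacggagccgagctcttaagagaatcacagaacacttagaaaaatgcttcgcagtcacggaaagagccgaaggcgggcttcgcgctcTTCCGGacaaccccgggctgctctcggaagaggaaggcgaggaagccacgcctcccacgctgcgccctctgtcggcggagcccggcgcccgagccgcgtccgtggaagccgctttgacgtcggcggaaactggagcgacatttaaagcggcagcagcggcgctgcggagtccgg

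The windows in closing sites are those of F930017D23Rik (chr10:43593177-43593476, plus strand), Mt4 (chr8:94136954-94137253, plus strand) and 4930512J16Rik (chr6:89285676-89285975, minus strand).
F930017D23Rik: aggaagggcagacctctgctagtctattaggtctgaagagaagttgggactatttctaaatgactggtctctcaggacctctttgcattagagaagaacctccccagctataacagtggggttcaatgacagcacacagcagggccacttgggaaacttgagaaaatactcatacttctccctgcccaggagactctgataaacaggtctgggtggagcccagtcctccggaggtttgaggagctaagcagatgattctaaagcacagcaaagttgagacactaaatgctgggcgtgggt
Mt4: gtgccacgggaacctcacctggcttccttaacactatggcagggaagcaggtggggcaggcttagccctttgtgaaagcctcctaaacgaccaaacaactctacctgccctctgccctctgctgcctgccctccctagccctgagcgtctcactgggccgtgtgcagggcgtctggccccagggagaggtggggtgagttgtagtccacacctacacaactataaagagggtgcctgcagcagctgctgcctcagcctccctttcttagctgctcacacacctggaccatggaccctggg
4930512J16Rik: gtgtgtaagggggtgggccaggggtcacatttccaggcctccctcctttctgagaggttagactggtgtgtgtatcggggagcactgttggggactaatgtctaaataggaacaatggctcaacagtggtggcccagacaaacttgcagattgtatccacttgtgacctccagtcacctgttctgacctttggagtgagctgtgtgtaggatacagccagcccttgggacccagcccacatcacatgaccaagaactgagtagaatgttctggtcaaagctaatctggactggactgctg

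The 6 windows in opening sites had a median GC content of 60.3% and a median of 28 CG dinucleotides, and the 4 in closing sites 50.5% and 2. Over the whole list, windows in all opening sites (293 genes) had medians of 59.0% and 18, and those in all closing sites (61 genes) 52.0% and 3. All 32851 windows had medians of 52.7% and 7. The ETS letters were in 3 of the 6 windows of opening sites and in none of the 4 of closing sites, against 14.9% of all windows. For AP-1 the counts were 1 and 0, against 7.81% of all windows, and the one match lay in the Smim14 window. E-box letters were in 1 and 0, against 7.15%, while CRE (1.79%), octamer (1.74%) and Esrrb letters (0.423%) were in neither set. In the 1110051M20Rik window the ETS letters stand on both strands, in 2 matches that overlap. Windows that opening sites covered only in part are left out of these counts. Of those, Gm13523 held AP-1 and ETS letters and Sh3kbp1 AP-1 letters, while Jakmip1 and Gm30944 held neither. A match of letters is not shown to be a bound site, and 10 windows are too few to compare shares.

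In 5 of the 6 pairs whose opening site held a whole window, that site was the higher one both after 4OHT and in control. Smim14 was the exception. Opening sites that covered a window only in part were all the lower ones in control. Their control levels were 6.71 against 9.48 at Jakmip1, 4.71 against 7.74 at Sh3kbp1, 6.41 against 7.11 at Gm13523 and 5.4 against 5.57 at Gm30944. In the authors' deposited table the Zbtb33 promoter site, at the gene of a zinc finger protein that binds methylated DNA, had a level of 9.62 after 4OHT and 9.16 in control, in log2 normalized reads. Its closing partner, 4032.5 bp away between centres, had 6.27 after 4OHT and 7.35 in control. At Grin1, an NMDA receptor subunit gene, the promoter site had 9.91 after 4OHT and 9.50 in control, and the partner 6.63 and 8.20. The Smim14 promoter site had 8.95 after 4OHT and 7.35 in control, a log2 change of 1.60 (FDR 1.01e-06 in the authors' deposited table), and its partner 7.24 and 8.11. At Mt4, a metallothionein gene, the promoter itself was the closing site, with 7.05 after 4OHT and 7.72 in control (log2 change -0.67). That site had an opening neighbour on each side: one 948 bp away, inside the gene, changed by 1.87 and the other, 2308.5 bp away, by 2.05.

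The first comparison was between close neighbours that changed in opposite directions and all close neighbours. Neighbours mostly changed the same way. Of 1716 adjacent pairs within 5 kb, 323 were opposite, or 18.8% (exact Clopper-Pearson 95% interval 17.0 to 20.8%, which covers counting error only and treats pairs as independent). The others were 715 pairs that both opened and 678 that both closed. The rule used the direction, so this share is a description. Among all sites tested by the authors, about 243900 as p-values, ranks and FDR imply under a Benjamini-Hochberg adjustment, the listed ones are 7.86%.

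Opposite pairs were rarer the closer the sites lay. Their share of adjacent pairs was 8.86% up to 1 kb (21 of 237), 16.8% from 1 to 2 kb (85 of 507) and 17.8% from 2 to 3 kb (67 of 377). It was 23.9% from 3 to 4 kb (73 of 306) and 26.6% from 4 to 5 kb (77 of 289). Beyond the limit of the rule it was 26.7% from 5 to 10 kb, 36.4% from 10 to 20 kb, 40.9% from 20 to 50 kb and 45.0% above 50 kb. The shares on the 2 sides of the 5 kb limit were 26.6% and 26.7%. The median distance between centres was 2805.5 bp in opposite pairs, 2234 bp in pairs that both opened and 2138 bp in pairs that both closed.

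**Figure D1:**
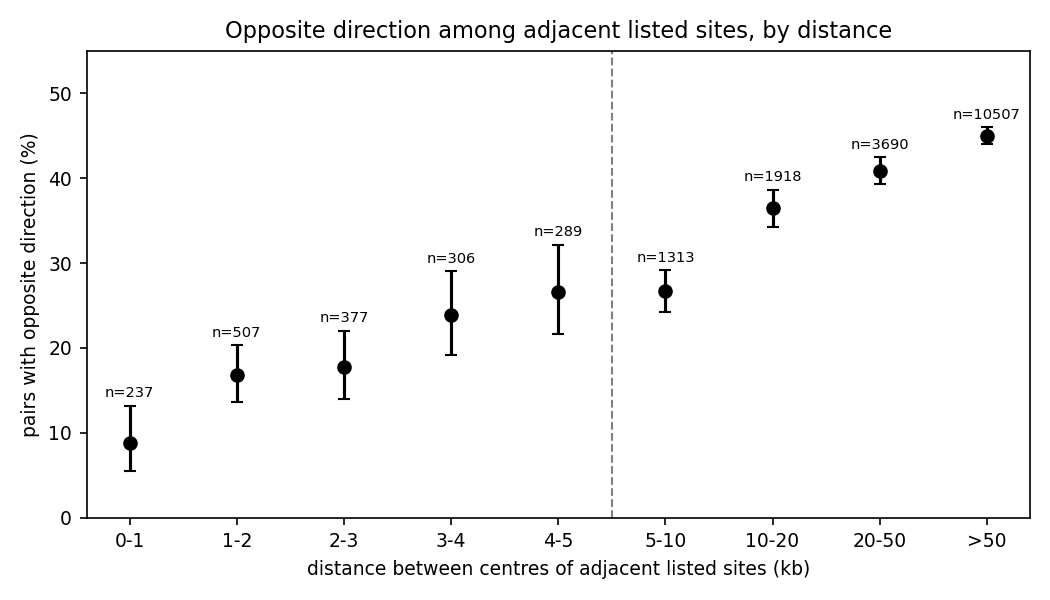
Share of adjacent listed sites with opposite directions (y axis, percent) by distance between their centres (x axis, kb). Points are shares, bars exact 95% intervals of the count, n the number of adjacent pairs, and the dashed line the 5 kb limit. The share was 8.86% up to 1 kb and 45.0% above 50 kb.

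The pairs nearest to the limit show how it works. Just inside, a pair inside Shroom3, an actin regulator gene, had centres 4998 bp apart, where the authors' deposited table gives log2 changes of 1.68 and -1.11. The next, nearest Lcp2, was 4922.5 bp apart, with 3.46 and -0.53. Just outside were a pair inside Rtn1 at 5001 bp, with 1.24 and -1.06, and one nearest Prr9 at 5005.5 bp, with 0.76 and -1.22. The smallest change of a member was 0.27 at an opening site near Rbm27 and -0.31 at a closing site near Il6st.

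Most pairs stood alone, as did most close neighbours of any direction. In 260 of the 323 pairs no further listed site lay within 5 kb of either member, against 1223 of all 1716 adjacent pairs. In 38 of 156 runs of 3 sites, 7 of 30 runs of 4 and 1 of 16 longer runs there was at least 1 opposite pair, against 260 of 1223 runs of 2. Beside the opening site the next listed site, where there was one, opened in 14 pairs and closed in 20, and the same counts were found beside the closing site. No pair joined an opening run to a closing run. Opening and closing sites had no fixed order along the chromosome: the opening site had the lower coordinate in 162 of 323 pairs. By chromosome the opposite share of close neighbours ranged from 10.8% on chromosome 10 (10 of 93) to 26.4% on chromosome 2 (33 of 125).

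The levels of the 2 sites were then compared within each pair. Counted over whole sites, the closing site was far more accessible than its opening neighbour in control, and after 4OHT the 2 were about level. Per kb of site, the opening one was the denser after 4OHT, by a median of 0.61 on the log2 scale, as given below. In the authors' deposited table, opening sites had a median of 6.93 log2 normalized reads after 4OHT (quartiles 6.28 and 7.92) and 5.50 in control (4.47 and 6.70). Closing sites had 7.04 after 4OHT (quartiles 6.11 and 7.90) and 7.92 in control (7.12 and 8.70). Within pairs, the median difference, opening minus closing, was 0.05 after 4OHT (quartiles -0.80 and 1.46) and -2.36 in control (-3.38 and -0.97). The opening site was the higher one in 165 of 323 pairs after 4OHT and in 37 of 323 in control. As direction picks sites that end higher or start higher, part of this follows from the rule, and over the whole list the medians of opening sites minus those of closing sites were 0.11 after 4OHT and -2.40 in control.

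**Figure D2:**
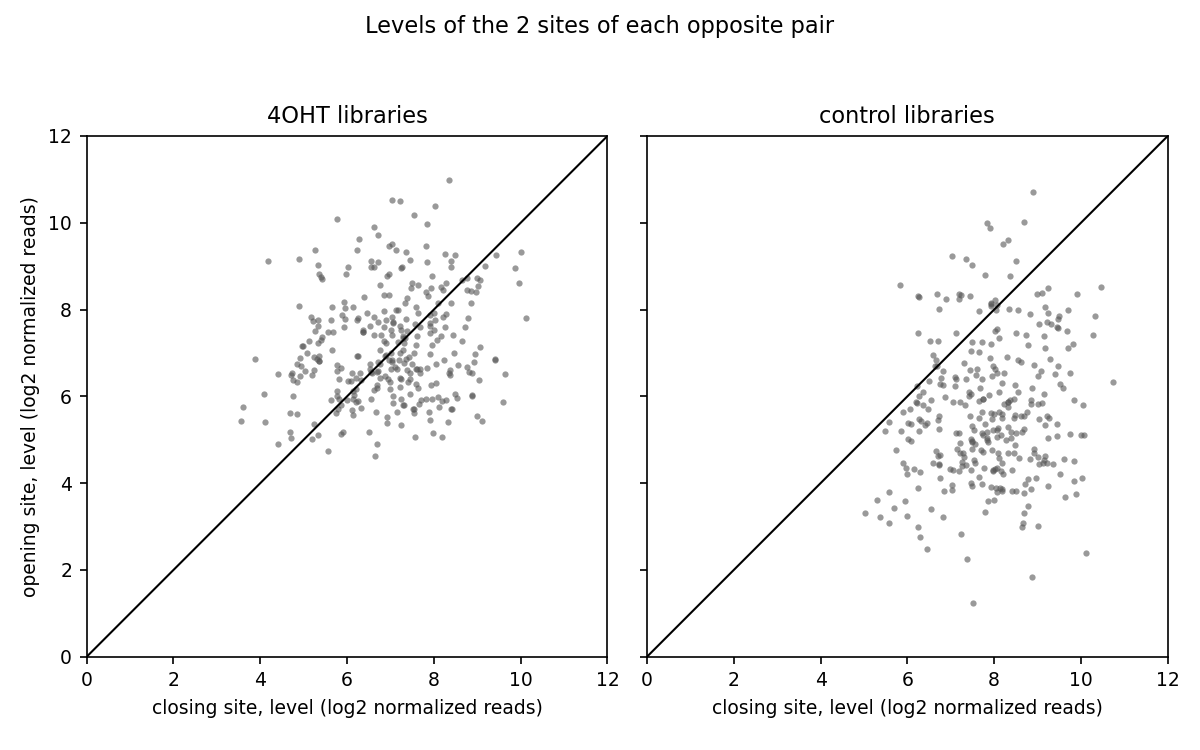
Level of the opening site (y axis) against that of the closing site (x axis) in each of 323 pairs, in log2 normalized reads, as means of 4OHT libraries (left) and control libraries (right). The line marks equal levels. Opening sites lie above it in 165 pairs after 4OHT and in 37 in control.

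The higher site of the pair was a different one after 4OHT than in control in 128 pairs (39.6%), where the closing site led in control and the opening site after 4OHT. As the rule fixes which site rises and which falls, the order could change in this direction only. In 156 pairs (48.3%) the closing site led on both sides, in 37 (11.5%) the opening site did, and in 2 the levels were equal after 4OHT. Counted in normalized reads, the opening site held a median of 50.9% of the pair's reads after 4OHT (quartiles 36.6 and 73.3%) and 16.3% in control (8.76 and 33.8%). The median log2 change of the pair's summed reads was -0.13 (quartiles -0.37 and 0.23), and in 246 pairs it was within 0.5 of 0. By the rule 1 site of each pair rises and the other falls. The opening share therefore rises in every pair, and the 2 changes offset each other in the sum. No such sum was taken for sites that are not neighbours. The sum was higher after 4OHT in 127 pairs and lower in 196.

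The 3 kinds of pair differed in which site was strong and wide. In the 128 pairs whose higher site was not the same after 4OHT, opening sites had median levels of 7.41 after 4OHT and 5.84 in control in the authors' deposited table, and closing sites 6.34 and 7.32. In the 156 pairs led by the closing site, opening sites had 6.50 and 4.74, and closing sites 7.65 and 8.50. In the 37 led by the opening site, opening sites had 9.13 and 8.29, with a median log2 change of 0.74, and closing sites 6.27 and 7.23, with -0.91. Within 1 kb of a gene end lay 7 opening and 1 closing site of these 37 pairs, 8 and 13 of the 156, and 8 and 8 of the 128, against 10.1% of all listed opening and 6.21% of all listed closing sites.

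On the log2 scale, gains were larger than losses in most pairs. In normalized reads the pair's sum fell in more pairs than it rose, as given above. The median log2 change was 1.45 at opening sites (quartiles 1.07 and 1.83, range 0.27 to 3.46) and -0.89 at closing sites (quartiles -1.08 and -0.74, range -1.77 to -0.31). Over the whole list these medians were 1.46 and -0.94. The opening change was the larger in size in 265 of 323 pairs. Both changes were at least 0.5 in size in 307 pairs and at least 1 in 86. In 46 pairs the opening site had a control level under 16 normalized reads, where a fold rests on few reads.

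Width was not used by the rule. Opening sites were the narrower ones, with a median of 374 bp (quartiles 261 and 533) against 548 bp at closing sites (333 and 769). The closing site was wider in 210 pairs, the opening site in 112 (34.7%, exact interval 29.5 to 40.1%), and 1 pair had equal widths. The median difference, opening minus closing, was -130 bp. The closing site was at least 2 times as wide in 97 pairs and the opening site in 37. The whole list had medians of 408 bp for opening and 557 bp for closing sites. In pairs that both opened, the sites had a median of 415 bp, and in pairs that both closed 482 bp.

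Width and level went together. The closing site was the wider in 150 of the 156 pairs it led on both sides, the opening site in 35 of the 37 it led, and the opening site in 70 of the 128 pairs whose higher site differed. Levels were therefore also set per kb of site. On this scale the median difference, opening minus closing, was 0.61 after 4OHT and -1.75 in control, in log2 normalized reads per kb. The opening site was then the denser one in 249 of 323 pairs after 4OHT and in 26 in control, and the denser site differed between 4OHT and control in 223 pairs (69.0%), against 39.6% on whole sites. The labels and file headers do not say how the authors set the edges of sites, and the part of width in the levels was not tested.

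**Figure D3:**
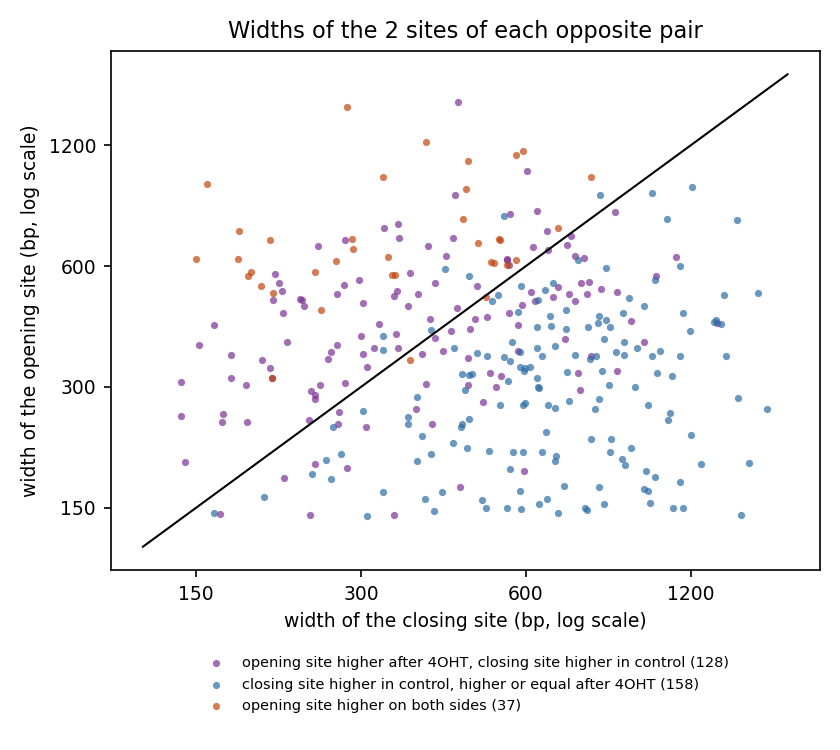
Width of the opening site (y axis) against that of the closing site (x axis) in each of 323 pairs, in bp on log scales, coloured by which site had the higher level. Pairs led by the closing site lie mostly below the line of equal width, 150 of 156 (plotted with the 2 pairs that were equal after 4OHT), and pairs led by the opening site above it, 35 of 37.

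The closest pairs had other medians than the rest. In the 21 pairs with centres up to 1 kb apart, the opening site was the wider in 13 and the closing site in 8, with a median difference of 78 bp. The median level of the opening site minus that of the closing site was 1.2 after 4OHT and -1.07 in control, in log2 normalized reads of the authors' deposited table. From 1 to 5 kb the bins of 1 kb gave medians of -0.09 to 0.08 after 4OHT and -2.58 to -2.29 in control, and median width differences of -178 to -88 bp. The bins were chosen after the data were seen, and the difference between the 21 pairs and the others was not tested. In 22 pairs the gap between the edges was under 500 bp, and whether such sites are parts of one wider open region was not tested.

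Of the 4 closest pairs, the higher site after 4OHT was the opening one in each. At Msi2, an RNA-binding protein gene, the sites inside the gene at chromosome 11, 88589658 to 88590024 and 88590145 to 88590408, have centres 435.5 bp apart and a gap of 120 bp. The opening site had 6.55 after 4OHT and 5.02 in control, and the closing site 6.11 and 7.46 (FDR 2.89e-04 and 1.35e-07 in the authors' deposited table). The 2 sites thus exchanged rank. A pair nearest Zc3h13, a gene of the RNA methylation machinery, was 478 bp apart, with log2 changes of 0.83 and -1.75. One nearest C1ql2 was 526 bp apart, with 1.48 and -1.01. One inside Srrm4, a neuronal splicing regulator gene, was 560 bp apart, with 1.01 and -0.94, and there the opening site led on both sides, at 9.37 and 8.36 against 6.24 and 7.18.

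Gene position was compared next, with RefSeq genes of GRCm38.p6, which shares its coordinates with mm10. The 2 sites of a pair mostly shared their surroundings by class of position. Both were inside a gene away from its ends in 170 pairs, both outside genes in 107 and both within 1 kb of a gene end in 4, so 281 of 323 were of one class. The 5 kb limit itself favours a shared class, and this count is not given for pairs of like direction. Within 1 kb of a gene end were 23 opening sites (7.12%) and 22 closing sites (6.81%). Inside genes were 184 (57.0%) and 180 (55.7%), and outside 116 (35.9%) and 121 (37.5%). The whole list was less even: near gene ends were 10.1% of all opening and 6.21% of all closing sites, and outside genes 33.9% and 44.5%. Sites near either end of a gene are not told apart here, nor are exons, introns and UTRs.

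**Figure D4:**
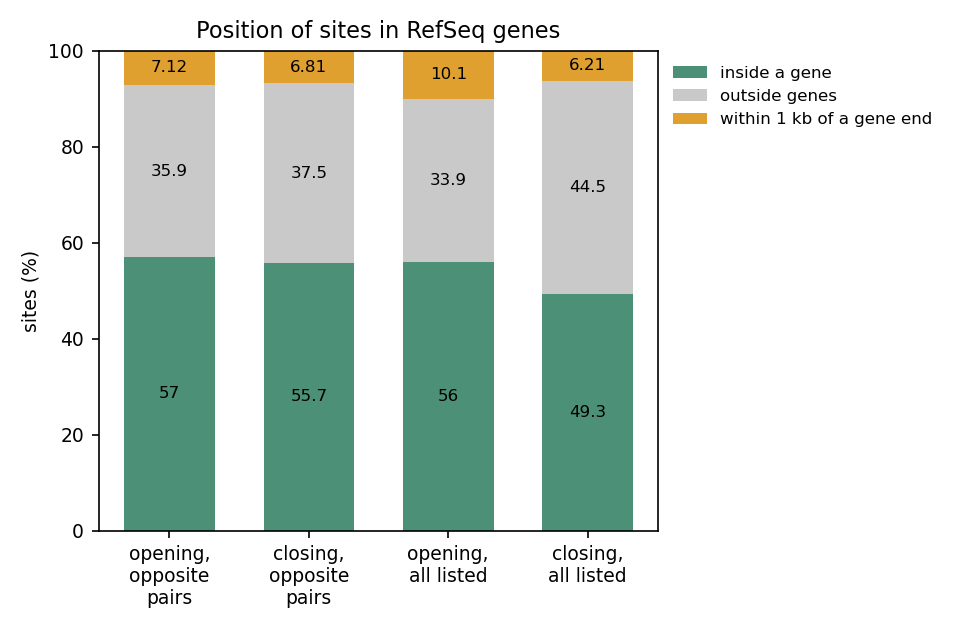
Share of sites (y axis, percent) inside genes, outside genes and within 1 kb of a gene end, for opening and closing sites of the 323 pairs and for all listed opening and closing sites. Near gene ends lie 7.12% of opening and 6.81% of closing sites of the pairs, against 10.1% and 6.21% over the whole list.

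Start sites were placed with the promoter windows, which carry strand, on the chromosomes that have them (306 pairs). The opening site was the nearer to a start site in 154 pairs and the closing site in 152. Within 1 kb of a start site were 15 opening and 7 closing sites, or 4.90% and 2.29%, against 5.44% and 2.03% of all listed opening and closing sites. The median distance to the nearest start site was 22978 bp at opening and 22376 bp at closing sites of the pairs, against 21964 and 30518 bp over the whole list. In 143 pairs both sites lay inside one gene whose start site was the nearest to both, and the opening site was the one further downstream in 75 of these. Among close neighbours with a site near a gene end, 41 of 254 pairs (16.1%) were opposite, against 18.8% where both were inside genes and 20.3% where both were outside.

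Both sites of 291 pairs had a protein-coding gene within 100 kb, and in 287 it was the same gene, which their closeness favours. Genes are used here to name places, and which gene a site acts on was not measured. In 155 pairs (48.0%) both sites lay inside one gene, against 58.5% of pairs that both opened and 44.2% of pairs that both closed. The genes that held both sites had a median length of 117770 bp, against 83341 bp for pairs that both opened and 119440 bp for pairs that both closed. The genes nearest to a pair numbered 273, and 22 genes had 2 pairs each, the most at any gene. These include Mras, a RAS family GTPase gene, Rbpj, the DNA-binding effector of Notch, Sall1 and Zfhx3, zinc finger factors of development, Mitf, a bHLH factor, Nav2, Plxna1, a semaphorin receptor, and Tcf7l2, a Wnt effector.

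The pair with the smallest larger FDR lay between Thrsp and Kctd14, at chromosome 7, 97426525 to 97426957 and 97429685 to 97430497. Its opening site had 8.45 after 4OHT and 7.12 in control, and its closing site 8.77 and 9.70 (FDR 1.08e-07 and 5.65e-08 in the authors' deposited table). The closing site stayed the higher one. A pair at Pbx4, a homeobox gene, had an opening site at 10.09 after 4OHT and 9.23 in control, and a closing site of 187 bp at 5.77 and 7.03. At Abhd17c the opening site had 7.52 and 5.76 and the closing site 7.24 and 8.32, so the higher site differed. At Tgfbi, a matrix protein gene, the opening site lay 1671 bp outside the gene with 8.32 and 6.47, and the closing site inside it with 7.87 and 9.0. The pair nearest Rnf19b, an E3 ubiquitin ligase gene, had the largest gain of the 6 with the smallest FDR, 7.61 after 4OHT and 4.46 in control, beside a closing site of 1319 bp at 8.26 and 9.22. The last of the 6, on chromosome 7 with no protein-coding gene within 100 kb, changed by 2.54 and -1.23.

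The 8 pairs in which both sites changed most are ranked by the smaller of their 2 changes. First was a pair nearest Hs6st1, a heparan sulfate sulfotransferase gene, with its opening site at chromosome 1, 36116644 to 36116946, at 5.75 after 4OHT and 3.23 in control. Its closing site, 36119568 to 36119752, had 3.60 and 5.36 in the authors' deposited table (FDR 5.32e-05 and 0.00142). The opening site held 81.6% of the pair's reads after 4OHT and 18.6% in control. Among the others were a pair on chromosome 5 with no coding gene within 100 kb (log2 changes 2.25 and -1.49) and Ptch1, the Hedgehog receptor gene (2.11 and -1.48). Exoc3l2 and Mark4 (1.5 and -1.39), Msi2 (1.53 and -1.35), Robo2, a Slit receptor gene (2.18 and -1.35), and Babam2 (1.68 and -1.35) were also among them. Several of these sites were weak: the lower of the 2 levels was 3.23 at the Hs6st1 opening site and 3.32 at that of Ptch1, about 9.38 and 9.99 normalized reads in control.

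**Figure D5:**
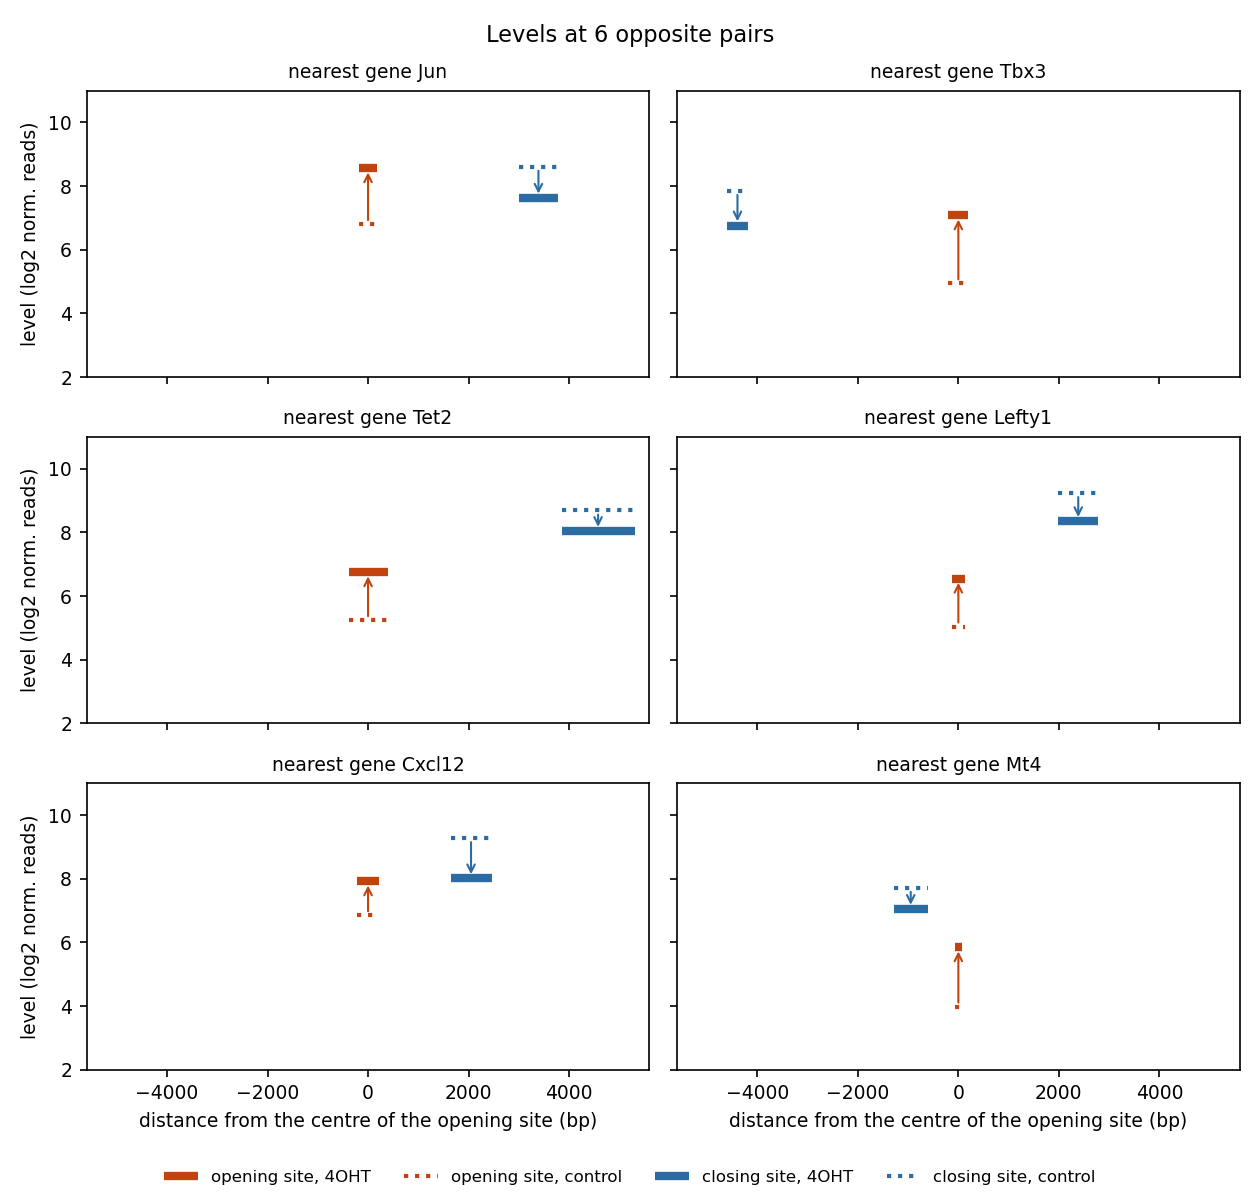
Levels (y axis, log2 normalized reads) of the opening and closing sites of 6 pairs, drawn to scale along the genome as distance from the centre of the opening site (x axis, bp). Thick bars are means of 4OHT libraries, dotted lines means of control libraries, and arrows point to the 4OHT level. The higher site after 4OHT is the opening one at Jun and Tbx3, and the closing one at Tet2, Lefty1, Cxcl12 and Mt4.

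Genes of ERK signalling and of the stem cell state were counted by list. In 13 lists with 201 genes, chosen with earlier results of these data known, 12 pairs were found in 7 lists, and 22 of the lists' 490 sites (4.49%) were in an opposite pair, against 3.28% of all listed sites. ERK immediate early genes had 2 pairs among 49 sites, and ERK feedback and FGF target genes 1 among 66. Genes of the receptor tyrosine kinase, RAS and MAPK cascade had 1 among 91, and naive pluripotency genes 1 among 61. Polycomb, Trithorax and DNA methylation genes had 3 among 80, and Wnt, BMP and Nodal pathway genes 3 among 50. No pair was found among the 10 sites of general pluripotency genes, 23 of primitive endoderm, 15 of mesendoderm, 6 of neural, 16 of trophectoderm and 14 of fibroblast genes.

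Among transcription factor genes, the pair nearest Jun, which encodes an AP-1 subunit, lay inside the antisense transcript gene Junos, 53295 and 56686 bp from Jun. The opening site, at chromosome 4, 95105338 to 95105696, had 8.56 after 4OHT and 6.80 in control, and the closing site, 95108515 to 95109301, had 7.63 and 8.61 (FDR 0.00434 and 3.52e-09 in the authors' deposited table). The opening site held 65.6% of the pair's reads after 4OHT and 22.2% in control. The pair nearest Myc lay inside Pvt1, a long non-coding RNA gene, 59168 and 54647 bp from Myc, and its opening site led on both sides, with 8.99 after 4OHT and 8.13 in control against 7.26 and 7.92. The pair nearest Tbx3, a T-box factor gene of the naive network, lay inside Tbx3os1, with its opening site at 7.08 after 4OHT and 4.94 in control and its closing site at 6.76 and 7.85 (FDR 2.50e-05 and 2.86e-04 in the authors' deposited table).

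Signalling genes with a pair were Lefty1, Tcf7l2, Lrig1 and Map4k3. Lefty1 encodes a secreted Nodal antagonist, and its pair lay within 3640 bp of the gene. The opening site had 6.55 after 4OHT and 5.04 in control, and the closing site 8.35 and 9.24 (FDR 0.00157 and 0.00230 in the authors' deposited table). Outside Tcf7l2, within 22701 bp of the gene, 1 closing site (7.84 after 4OHT and 8.51 in control) had an opening site on each side, one strong at 9.98 and 9.12 and one weak at 6.65 and 5.16. Near Lrig1, which encodes a transmembrane inhibitor of receptor tyrosine kinases, the opening site had 7.41 and 5.90 and the closing site 6.78 and 7.64. Near Map4k3, a kinase gene, the changes were 1.04 and -0.79 at sites 756.5 bp apart.

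Chromatin regulator genes with a pair were Tet2 and Jarid2. The pair nearest Tet2, a 5-methylcytosine dioxygenase gene, lay 41537 and 46115 bp outside it, with 6.75 after 4OHT and 5.24 in control at the opening site and 8.04 and 8.69 at the closing one. Jarid2, a Polycomb cofactor gene, was nearest to 39 opening sites and 1 closing site, and that closing site made both of its pairs. It had 7.04 after 4OHT and 7.84 in control (FDR 0.00567 in the authors' deposited table). Its neighbours were a strong site of 1000 bp with 10.53 and 9.99, and a site with 6.80 and 5.05. It was also part of the longest run with an opposite pair, of 6 sites between 44733301 and 44744627 on chromosome 13. Msi2, with 8 opening and 12 closing sites, had 2 pairs, the one of 435.5 bp above and one of 4656.5 bp with changes of 0.77 and -0.59.

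Pairs with a site within 1 kb of an end of a protein-coding gene numbered 22. Of the 6 with the smallest larger FDR, the first Mt4 pair is given above and one lay outside Mras, with the opening site at 8.61 after 4OHT and 7.40 in control and the closing site, 345 bp from the gene, at 8.28 and 9.14 (FDR 3.45e-08 and 3.10e-05 in the authors' deposited table). A second Mras pair, inside the gene, had changes of 0.88 and -1.0. At Cxcl12, a chemokine gene, both sites lay inside the gene, the closing one near an end, and had 7.92 after 4OHT and 6.85 in control for the opening and 8.01 and 9.28 for the closing site (FDR 4.87e-05 and 6.64e-09). Mrps2, a mitochondrial ribosomal protein gene, had equal and opposite log2 changes of 1.30 and -1.30. Cd70, a TNF family ligand gene, had 2.43 and -0.86. Olfr111 had 1.56 and -0.69, but this olfactory receptor gene belongs to a large family with close copies, and with the handling of multiply matching reads unstated its values are uncertain.

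Of the 5 genes with 2 pairs taken by smallest FDR, Mras and Msi2 are given above. At Mpped2 and at Srrm4, 1 opening site lay between 2 closing ones. The Mpped2 opening site had 8.82 after 4OHT and 7.27 in control, and the closing sites 5.97 and 6.71, and 5.36 and 6.52, in the authors' deposited table. At Srrm4 the outer pair, with centres 3030 bp apart, had changes of 1.01 and -1.43. Dym, a gene for a Golgi-associated protein, held pairs with changes of 1.07 and -0.93, and of 2.72 and -1.09. Named after their values were seen, for their place in LIF signalling, are the genes of both chains of the LIF receptor. Near Lifr 1 opening site (5.91 after 4OHT and 4.69 in control) lay between 2 closing sites (7.71 and 8.32, and 8.28 and 8.92). Near Il6st the opening site had 8.62 after 4OHT and 7.41 in control, and the closing site 9.96 and 10.27.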

How the data were processed

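ATAC-seq of 9 libraries was summarised by the authors in 1 table of differentially accessible sites. Per the submitters' processing notes, mm10 was the build, and MACS2, Bowtie2 and bedtools appear among the tools, with neither version nor role. Which differential test, read filter and scaling were used is not stated. Levels are the authors' log2 normalized reads, per the file headers and values. The mean level equals a mean weighted 3 to 6 to within 0.00986, and the 4OHT mean was therefore read as one over both times. The authors' deposited fold is control minus 4OHT, and its sign was turned. Each p-value and FDR is copied from the authors' table, in which no FDR exceeds 0.01, without refitting. Site lengths in bp come from the deposited width column. Columns of other samples numbered 0.

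Pairs were found by the stated rule, and the finder was tested on simulated sites. Gene ends (1 kb) and the nearest protein-coding gene (100 kb, the shortest where genes overlap) came from 49997 RefSeq genes without strand, of which 21900 are protein-coding. Start sites came from promoter windows. All 201 list genes were found. No test was run: sites are not replicates and the rule used the contrast. Intervals are exact Clopper-Pearson 95%.

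The members, the 13 gene lists and the measures described were chosen with earlier results of these data known. Pairs named were, by rule, the 8 with the largest smaller change, the 6 with the smallest larger FDR, the 4 closest, up to 4 per list, 6 at coding gene ends, those of 5 genes with the most pairs (ties broken by FDR) and 2 on each side of 5 kb. Promoter pairs, Lifr, Il6st and the other genes with 2 pairs were added after values were seen. Some pairs and list counts that these rules give are not reported here. Scripts ran on scipy 1.17.1, matplotlib 3.10.9, numpy 2.4.6, pandas 2.3.3 and Python 3.11.15.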

Additional observations from a re-analysis of the deposited data

How the results depend on the processing

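No paired analysis was possible because the table holds no value per library, and for the same reason no replicate could be left out. The number of pairs was 106 with centres within 2 kb, 673 within 10 kb, 54 with FDR under 0.001 at both sites and 86 with both changes at least 1, against 323, and their share of close neighbours was 14.2% within 2 kb, 22.2% within 10 kb and 12.1% with FDR under 0.001, against 18.8%. With FDR under 0.001 the median differences, opening minus closing, were -0.92 in mean level (against -0.63), -2.76 in control level (against -2.36) and -237.5 bp in width (against -130), and the opening site was the wider in 24.1% (against 34.7%). Chosen after the data were seen, pairs up to 1 kb apart gave 0.50 in mean level, 1.2 after 4OHT (against 0.05), -1.07 in control and 78 bp in width, with 61.9% wider opening sites and 52.4% of pairs with a different higher site (against 39.6%). Per kb of site the level differences were -0.12, 0.61 after 4OHT and -1.75 in control, and 69.0% had a different denser site. Opening sites near a gene end were 3.41% with 500 bp, 15.2% with 2 kb and 4.02% with protein-coding genes alone, against 7.12%, and closing sites 13.0% with 2 kb and 3.10% with protein-coding genes alone, against 6.81%. The remaining 31 of 57 values lay within the interval of the value reported or within 1.5 times the count. Among them were those for autosomes alone, 1 pair per site and gaps in place of centres. Autosomes alone kept 317 of the 323 pairs, so those values had little room to move. The 4OHT difference, also among the 31, was -0.045 with FDR under 0.001. Moving the zero of the change by 0.25 could turn no sign, since the smallest listed change is 0.26, and is not counted. The list was cut by FDR, so weak changes beside a listed site are not seen.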
